A study of Homo sapiens with 26 samples.

Results

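The aldehyde dehydrogenase genes ALDH1A1, ALDH1A3, ALDH1B1, ALDH2, ALDH3A1, ALDH3A2, ALDH4A1, ALDH7A1, ALDH9A1 and ALDH18A1 were described in the 26 lines of a panel of malignant human B cells. They are 10 of 19775 genes with a probe-set of their own on the Affymetrix HG-U133 Plus 2.0 array. Each was represented by every probe-set annotated to it and to no other gene, which gave 18 probe-sets. ALDH1A1, ALDH2, ALDH3A1 and ALDH9A1 had 1 probe-set each, so their values could not be compared with those of a second one. Each line was profiled once, untreated and in exponential growth, and 14 lines were of diffuse large B-cell lymphoma (DLBCL) and 12 of multiple myeloma (MM). MC-116, labelled an undifferentiated lymphoma, was kept with the DLBCL lines, and AMO-1, labelled a plasmacytoma, with the MM lines. All lines are established cultures grown in medium with 10 to 20% serum, and KMS-12-BM is a sister of KMS-12-PE. OCI-Ly3 and LP-1 were grown in IMDM and all other lines in RPMI, and the study lists human serum for OCI-Ly3. The resistance of each line was given as AUC0, the area under the positive part of its dose response curve, so that a high AUC0 is a resistant line. AUC0 was available in 24 lines for cyclophosphamide (C), in 26 for doxorubicin (H) and in 24 for vincristine (O), and mafosfamide, which needs no activation by the liver, was used in place of C. Within each disease the lines were classed as sensitive, intermediate or resistant by tertiles of AUC0.

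Aldehyde dehydrogenases oxidise aldehydes to acids with NAD+ or NADP+ as the electron acceptor. The family is known in cyclophosphamide treatment because aldophosphamide, the aldehyde on the way from the activated drug to the alkylating mustard, can be oxidised to carboxyphosphamide, which does not alkylate DNA. ALDH1A1 and ALDH3A1 are the members best known for this reaction. Other members serve ordinary metabolism, such as the removal of acetaldehyde and fatty aldehydes and the turnover of proline, lysine and carnitine precursors.

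The 26 profiles carried the markers of their labels. Of 4 measured B-cell marker genes, 3 to 4 were above the background level in every DLBCL line and 1 to 2 in every MM line, and all 4 were lower in MM. All 5 plasma cell marker genes were higher in MM, where 4 to 5 were above background in each line, but 2 to 5 were above it in each DLBCL line too. T-cell markers were above background in at most 1 of 4 genes in any line, myeloid markers likewise, and stromal and endothelial markers in 1 to 3 of 4 genes, with the highest count in HBL-1. Precision is limited by how few arrays there are. The p values measure the spread between lines, since no line was profiled more than once. The sisters KMS-12-BM and KMS-12-PE were counted as separate lines, so not all lines are of independent origin. With KMS-12-PE left out, 7 of the members' probe-sets were called between the diseases, the same count as with it. An array reads a whole culture, so a low level in all cells and a high level in a few of them cannot be told apart.

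The bases upstream of the gene start are shown for 3 members that behaved differently across the panel. ALDH1A1 was never above background, ALDH7A1 was above it in a few lines and ALDH9A1 in all. Each stretch holds 250 bases of RefSeq sequence (GRCh38.p14, minus strand, written 5′ to 3′ and ending just before the annotated start), and the capitals mark CG pairs. They lie at chr9:72953054-72953303, chr5:126595220-126595469 and chr1:165698563-165698812.
ALDH1A1: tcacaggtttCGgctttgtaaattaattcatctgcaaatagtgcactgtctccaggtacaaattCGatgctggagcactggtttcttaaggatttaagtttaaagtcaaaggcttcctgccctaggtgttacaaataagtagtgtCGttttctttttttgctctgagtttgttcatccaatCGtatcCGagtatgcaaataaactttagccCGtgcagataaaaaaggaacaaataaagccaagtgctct
ALDH7A1: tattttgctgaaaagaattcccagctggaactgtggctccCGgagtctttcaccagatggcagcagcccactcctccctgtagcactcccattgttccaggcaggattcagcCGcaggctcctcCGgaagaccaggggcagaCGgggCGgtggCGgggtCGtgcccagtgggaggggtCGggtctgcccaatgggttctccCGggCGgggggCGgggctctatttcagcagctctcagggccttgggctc
ALDH9A1: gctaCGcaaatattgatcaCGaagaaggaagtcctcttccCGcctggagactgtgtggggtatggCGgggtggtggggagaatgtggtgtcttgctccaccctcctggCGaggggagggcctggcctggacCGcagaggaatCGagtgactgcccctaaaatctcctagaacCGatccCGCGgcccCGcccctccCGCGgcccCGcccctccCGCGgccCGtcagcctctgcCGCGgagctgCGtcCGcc
The ALDH1A1 stretch held 6 CG pairs, the ALDH7A1 stretch 11 and the ALDH9A1 stretch 21, against a median of 11 over 34788 such stretches. The GC box GGGCGG, searched on both strands, occurred 3 times before ALDH7A1, 2 times before ALDH9A1 and not before ALDH1A1, and 42.6% of all stretches held it. CCAAT, on either strand, occurred once before ALDH1A1 and once before ALDH7A1, and 32.0% of all stretches held it. TATAAA was in none of the 3 and in 10.8% of all. The stretch before ALDH1A3, another gene that was never above background, held 38 CG pairs, and 3.29% of all stretches held as many or more. Of the 10 members, 8 had an entry in the table of promoters.

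RMA values carry no detection call, so a background level was set. It was 6.67 on the log2 scale, the 95th percentile of 40 probe-sets for genes of other tissues such as liver, muscle and pancreas. A gene was counted as above background in a line where at least 1 of its probe-sets exceeded that level. Of the 260 pairs of a member and a line, 143 were above it. The plot of members above background shows a shared core of 4 genes and 3 genes that differ between lines. Levels of different genes were not ranked against each other, since probe-sets bind with different strength. The calls share this limit, as 1 level was applied to every probe-set.

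**Figure D1:**
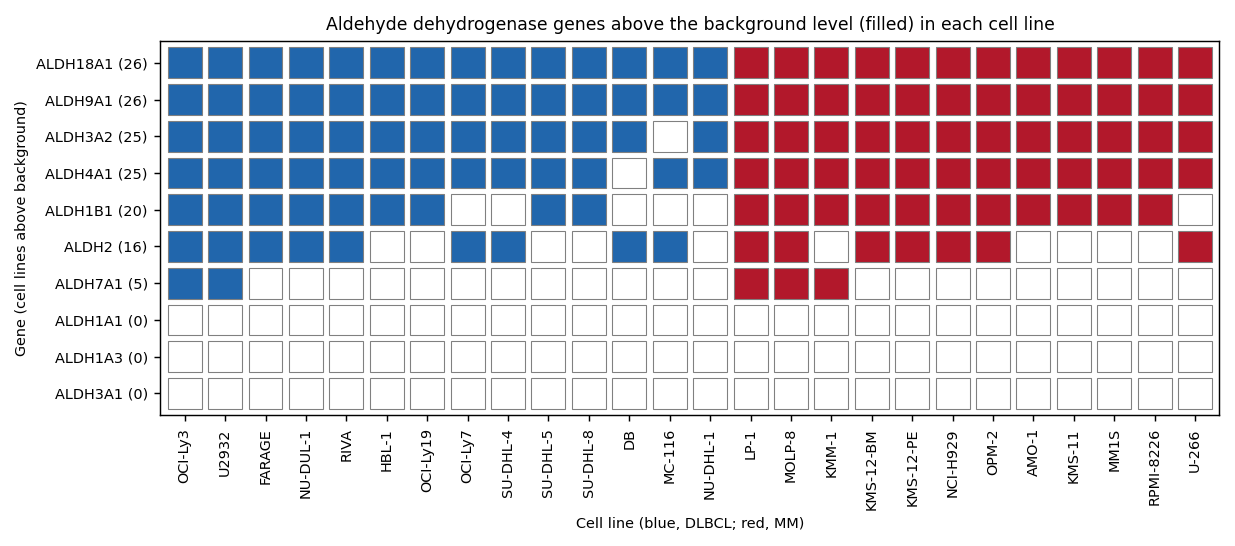
Members above the background level of 6.67 (log2 RMA value) in each cell line. Columns are the 26 lines, DLBCL in blue and MM in red, rows are the 10 genes, and a filled square marks at least 1 probe-set above the level. ALDH18A1 and ALDH9A1 are filled in 26 lines, ALDH2 in 16, ALDH7A1 in 5, and ALDH1A1, ALDH1A3 and ALDH3A1 in 0.

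The members best known for oxidising aldophosphamide were not above background in any line. ALDH1A1 (chr9:72900671-72953053), a cytosolic retinaldehyde dehydrogenase, ranged from 3.19 in LP-1 to 4.18 in OCI-Ly7 with a median of 3.44. ALDH3A1 (chr17:19737984-19748298), an enzyme abundant in cornea and stomach, ranged from 5.10 in U2932 to 6.06 in KMS-11 with a median of 5.58. ALDH1A3 (chr15:100879831-100916626), another retinaldehyde dehydrogenase, ranged from 3.54 in RIVA to 4.30 in NCI-H929 by its leading probe-set, and from 3.46 to 4.25 by its other one. The 26 lines of each of these genes lay within 1 log2 unit, and a level under the background does not show that the RNA was absent.

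A core of 4 members was above background in nearly every line. ALDH9A1 (chr1:165662216-165698562), which acts in carnitine synthesis and on aminoaldehydes, was above it in 26 lines, with values from 9.39 in OCI-Ly7 to 11.36 in OPM-2. ALDH18A1 (chr10:95605941-95656711), the enzyme that makes pyrroline-5-carboxylate from glutamate for proline synthesis, was above it in 26 lines, with values from 8.94 in U-266 to 10.72 in SU-DHL-5. Both genes stayed above the stricter 99th percentile of 7.39 in all 26 lines. ALDH3A2 (chr17:19648136-19677596), the fatty aldehyde dehydrogenase of the endoplasmic reticulum near ALDH3A1 on chromosome 17, was above background in 25 lines. Its leading probe-set ranged from 6.59 in MC-116, the exception, to 10.75 in KMM-1. ALDH4A1 (chr1:18871430-18902555), which oxidises pyrroline-5-carboxylate to glutamate in proline breakdown, was above background in 25 lines, all but DB. This rests on its second probe-set, with values from 6.66 to 7.94, as the leading one exceeded the level in only 4 lines and either exceeded 7.39 in 6. Its presence in most lines therefore depends on where the level is set.

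ALDH1B1, ALDH2 and ALDH7A1 separated the lines. ALDH1B1 (chr9:38392702-38398661), a mitochondrial enzyme close to ALDH2 in sequence, was above background in 9 DLBCL and 11 MM lines. It was not above it in DB, NU-DHL-1, OCI-Ly7, SU-DHL-4, MC-116 and U-266. ALDH2 (chr12:111766933-111817532), the mitochondrial enzyme that clears acetaldehyde, was above background in 9 DLBCL and 7 MM lines. ALDH7A1 (chr5:126541841-126595219), or antiquitin, which acts in lysine breakdown, was above it in 2 DLBCL and 3 MM lines.

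ALDH2 covered a wide range. It was highest in MC-116 at 11.53, followed by U2932 at 10.68, OCI-Ly3 at 10.14, FARAGE at 10.13 and DB at 9.63, all DLBCL lines. LP-1 followed at 9.18 and was the highest MM line. RIVA had 8.81, SU-DHL-4 had 8.64 and OCI-Ly7 had 8.38. The values then ran on from NCI-H929 at 7.89 across the background level to MM1S at 6.05. The widest step in the whole order, 0.85, lay between MC-116 and U2932, so no gap divided the lines. With 1 array per line it is not known which neighbours in this order differ beyond the error of an array, and of the sisters, KMS-12-BM had 7.72 and KMS-12-PE 7.84.

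ALDH7A1 stood out in a few lines. U2932 had 9.05 by the leading probe-set, KMM-1 had 8.33, MOLP-8 had 7.22, LP-1 had 6.96 and OCI-Ly3 had 6.77. A step of 1.48 separated these 5 lines from OCI-Ly7 at 5.28, and the lowest line was KMS-11 at 3.55. LP-1 and OCI-Ly3 lay close above the background level, and 2 lines exceeded 7.39. A second probe-set followed the same order closely, with a Pearson correlation of 0.984 over the 26 lines. The third stayed between 4.11 and 5.12 in all lines and had correlations of 0.579 and 0.566 with the other two, so the probe-sets of this gene disagree on its level. Of the 5 lines, 4 were also above background for ALDH2, the exception being KMM-1.

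The most common set of members above background was ALDH1B1, ALDH3A2, ALDH4A1, ALDH9A1 and ALDH18A1, found in 4 DLBCL and 4 MM lines. The same set with ALDH2 was found in 3 DLBCL and 4 MM lines. All 7 detectable members were above background in 2 DLBCL lines, OCI-Ly3 and U2932, and 2 MM lines, LP-1 and MOLP-8. OCI-Ly3 and LP-1 were also the only lines grown in IMDM, and any effect of the medium was not tested. DB, MC-116 and NU-DHL-1 had the fewest, with 4 members each. ALDH1B1 was under the level of 6.67 in all 3, as were ALDH4A1 in DB, ALDH3A2 in MC-116 and ALDH2 in NU-DHL-1. Several of these values lay close under it. ALDH4A1 in DB had 6.66 by its second probe-set and ALDH3A2 in MC-116 had 6.59 by its leading one. The leading probe-set of ALDH1B1 had 6.63 in NU-DHL-1 and 6.58 in DB. These lines are therefore not shown to lack the genes. All these sets depend on where the level is set. Above 7.39, ALDH1B1 was found in 15 lines, ALDH2 in 12, ALDH4A1 in 6 and ALDH7A1 in 2. At that level U2932 lacked ALDH4A1, at 7.28 by its second probe-set, and OCI-Ly3, LP-1 and MOLP-8 lacked ALDH7A1. No line then held all 7 members.

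The first comparison asked which members differ between the diseases. ALDH1B1, ALDH3A2, ALDH4A1 and ALDH9A1 were higher in MM and no member was lower by the test. Of the 18 probe-sets, 7 passed limma at an adjusted p of 0.05, all higher in MM. Over all 54613 probe-sets tested, 5.64% were called higher and 5.87% lower in MM. The median difference over the 10 leading probe-sets was 0.085, against −0.024 over all probe-sets.

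**Figure D2:**
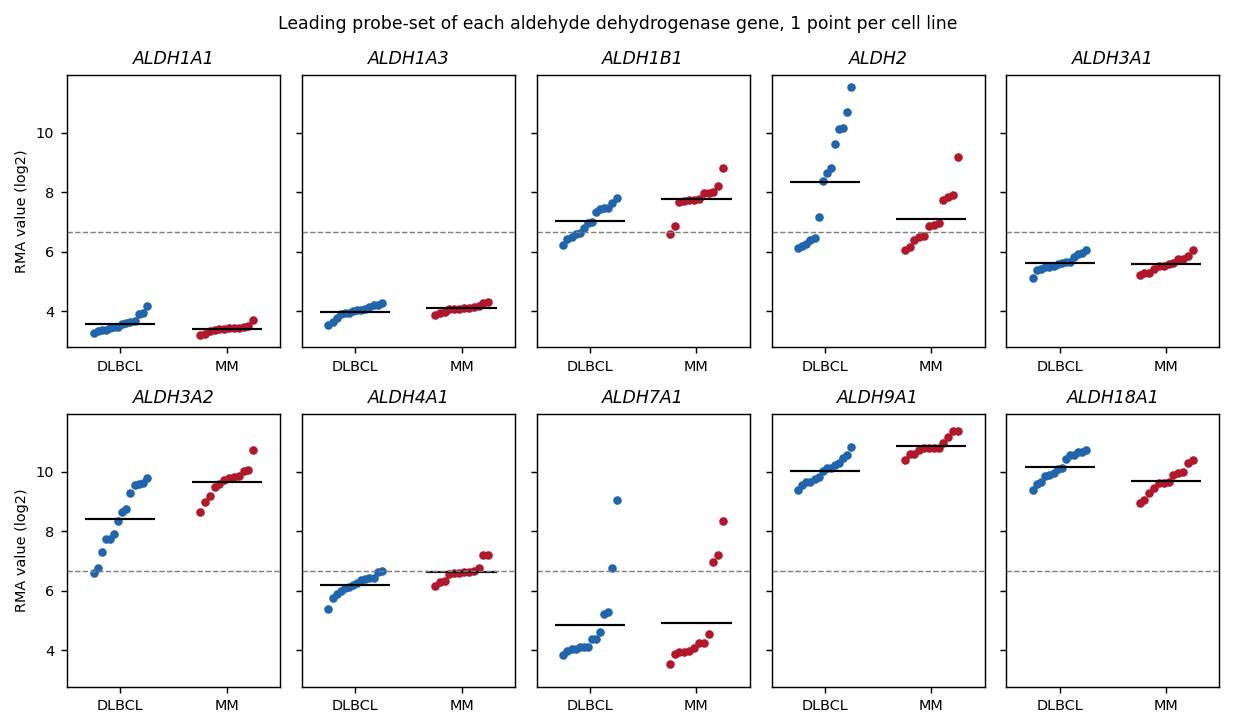
Leading probe-set of each member in the DLBCL and MM lines (log2 RMA value). Points are single cell lines, bars are group means and the dashed line is the background level of 6.67. ALDH9A1, ALDH3A2, ALDH1B1 and ALDH4A1 have higher means in MM, whereas ALDH2 and ALDH7A1 spread over more than 5 log2 units with overlapping groups.

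ALDH9A1 ran from 9.39 to 10.83 in DLBCL with a median of 10.07, and from 10.39 to 11.36 in MM with a median of 10.79. The groups overlapped, with SU-DHL-8, NU-DUL-1 and MC-116 above U-266, the lowest MM line. The difference was 0.83 (standard error 0.14, limma adjusted p = 3.0e-04).

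ALDH3A2 ran from 6.59 to 9.78 in DLBCL with a median of 8.49, and from 8.65 to 10.75 in MM with a median of 9.75. The DLBCL lines were spread over 3.19 log2 units and their upper part lay among the MM lines. The difference was 1.25 (standard error 0.34, limma adjusted p = 0.0147), and its other probe-sets gave 1.22 and 0.93 and passed as well.

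ALDH1B1 ran from 6.23 to 7.80 in DLBCL with a median of 6.98, and from 6.58 to 8.81 in MM with a median of 7.75. U-266 and RPMI-8226 were the MM lines that lay low. The difference was 0.74 (standard error 0.21, limma adjusted p = 0.0193). Its second probe-set gave 0.30 and did not pass (limma adjusted p = 0.177), so the 2 probe-sets share the direction and not the call.

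ALDH4A1 differed by 0.45 (standard error 0.13, limma adjusted p = 0.0231), with a mean of 6.19 ± 0.35 (SD) in 14 DLBCL and 6.64 ± 0.32 in 12 MM lines. Its second probe-set gave 0.37 and passed, and both groups lay close to the background level. With MC-116 and AMO-1 left out, the lines with other labels, the leading probe-set gave 0.42 and just missed the threshold (limma adjusted p = 0.0505).

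ALDH18A1 and ALDH2 had lower means in MM and did not pass. ALDH18A1 had a mean of 10.16 ± 0.45 in DLBCL and 9.68 ± 0.45 in MM, a difference of −0.48 (standard error 0.17, limma adjusted p = 0.0726). With MC-116 and AMO-1 left out it was −0.59 and passed (adjusted p = 0.0269), as it did without U2932 at −0.54, without KMS-11 at −0.53 or without AMO-1 at −0.54. ALDH2 had a mean of 8.32 ± 1.89 in DLBCL and 7.08 ± 0.92 in MM, a difference of −1.25 (standard error 0.58, 95% confidence interval −2.44 to −0.053, limma adjusted p = 0.174). The difference of ALDH7A1 was 0.056 (95% confidence interval −1.13 to 1.24), which is too wide to say that the diseases are alike.

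Other genes of the same pathways were taken from lists by function. Of 9 further ALDH genes, ALDH1L2 and ALDH8A1 were higher in MM and none was lower. ALDH1L2, the mitochondrial formyltetrahydrofolate dehydrogenase, differed by 3.05 (standard error 0.74, limma adjusted p = 0.00733) and passed with 3 probe-sets. ALDH8A1, an enzyme of tryptophan breakdown, differed by 0.85 (limma adjusted p = 0.0104). Of 9 measured genes of oxazaphosphorine metabolism, CYP2B6, which activates cyclophosphamide in the liver, was lower with 1 probe-set (difference −0.29), and its leading probe-set at −0.10 did not pass. Of 6 genes of proline and glutamate metabolism, GLUD1, glutamate dehydrogenase, was lower (difference −0.56, limma adjusted p = 0.0347) and passed with 2 probe-sets. Of 8 retinoid genes, RDH10, which makes retinaldehyde from retinol, was higher by 1.36 and RARA, a retinoic acid receptor, by 0.95, whereas RDH11, another retinol dehydrogenase, was lower (difference −0.76). None of 7 alcohol dehydrogenase genes passed. By probe-set, 4 of 21 were higher for the further ALDH genes. Lower ones were 1 of 24 for oxazaphosphorine metabolism and 2 of 10 for proline and glutamate metabolism. Of 23 retinoid probe-sets 4 were higher and 1 was lower, and of 15 for alcohol dehydrogenases 0 passed. Over all probe-sets tested, 5.64% were called higher and 5.87% lower in MM, and a gene with more probe-sets has more chances of a call.

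The second comparison asked whether members differ between resistant and sensitive lines of each drug. The classes were compared with disease as a covariate, with 8 resistant and 8 sensitive lines for C and O and 9 of each for H. No member passed limma at an adjusted p of 0.05 for any drug, and neither did any probe-set on the array (0%). At an unadjusted p of 0.05 the counts were 1 of the 18 probe-sets for C, against 4.29% of all probe-sets, 3 for H against 6.49% and 2 for O against 3.51%. Fits of expression on AUC0 itself, over every line with a value, called 0% as well. At an unadjusted p of 0.05 the fit for C held 2 members' probe-sets against 3.98% of all, that for H held 3 against 5.11% and that for O held 1 against 5.6%. The median difference over the 10 leading probe-sets was −0.065 for C, 0.052 for O and −0.0057 for H, against −0.0019, −0.00084 and 0.018 over all probe-sets. None of the genes of the other lists passed either.

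**Figure D3:**
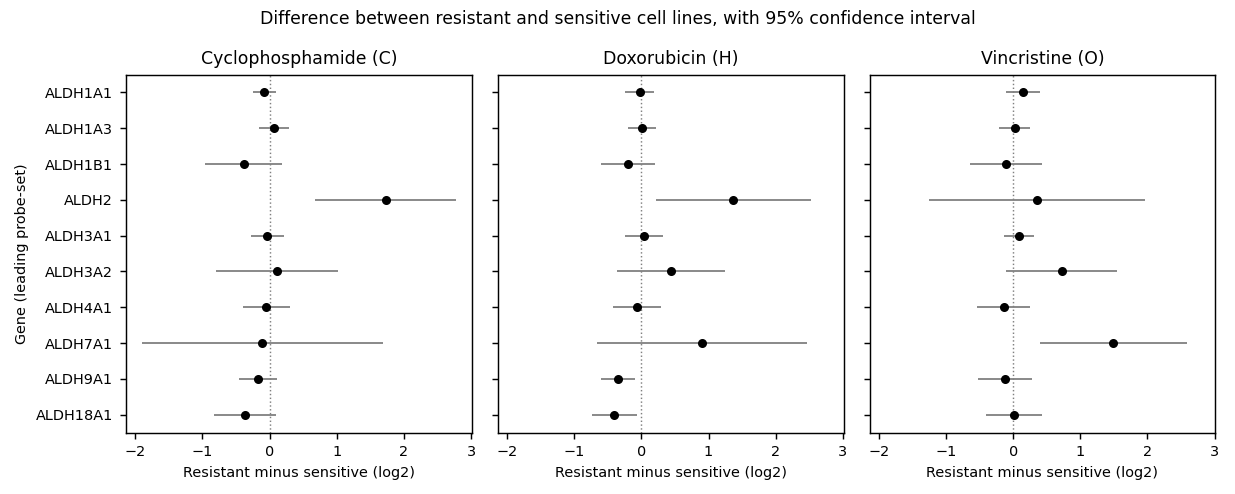
Difference between resistant and sensitive lines for the leading probe-set of each member (log2 scale, points) with its 95% confidence interval (lines) for C, H and O. ALDH2 lies at 1.73 for C and 1.37 for H, ALDH7A1 at 1.49 for O, and no difference passed after adjustment over all probe-sets.

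ALDH2 had the largest estimate of the members for C and for H. For C the resistant minus the sensitive lines gave 1.73 (standard error 0.49, 95% confidence interval 0.68 to 2.78), which did not pass (limma adjusted p = 0.989) and ranked 120 of 54613 by p. For H the difference was 1.37 (standard error 0.55, limma adjusted p = 0.712) and for O it was 0.36 (standard error 0.75, limma adjusted p = 0.999). The value for O ran from 0.068 without LP-1 to 0.86 without MC-116. Per 100 units of AUC0 the slope of ALDH2 was 1.53 on C (standard error 0.47, limma adjusted p = 0.9997) and 1.27 on H (standard error 0.61, limma adjusted p = 0.955). On O it was 0.84 (standard error 1.13, limma adjusted p = 0.955).

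In the DLBCL lines ALDH2 separated the classes of C. The resistant lines had 10.68 in U2932, 10.13 in FARAGE, 9.63 in DB and 8.81 in RIVA. The sensitive lines had 7.15 in NU-DUL-1, 6.45 in OCI-Ly19, 6.39 in SU-DHL-5 and 6.13 in NU-DHL-1. The groups did not overlap, and ALDH2 was the one member of which this is true, among 2.6% of all probe-sets. The difference in DLBCL lines alone was 3.28 (limma adjusted p = 0.271). Of the intermediate lines, OCI-Ly3 and OCI-Ly7 had 10.14 and 8.38, and HBL-1 and SU-DHL-8 had 6.19 and 6.26.

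The MM lines showed no such separation for C. The resistant lines had 7.72 in KMS-12-BM, 6.85 in U-266, 6.39 in RPMI-8226 and 6.14 in AMO-1. The sensitive lines had 6.95 in MOLP-8, 6.90 in OPM-2, 6.49 in KMM-1 and 6.05 in MM1S. They overlapped, the difference was 0.18, and LP-1, the highest MM line at 9.18, was intermediate. No member separated the classes of C in MM lines, against 2.67% of all probe-sets. The classes are relative to each disease. AUC0 of C ran from 165 to 346 in DLBCL lines and from 242 to 395 in MM lines. The sensitive MM line OPM-2 had 303, above the resistant DLBCL line RIVA at 296.

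Whether the diseases differ was tested as an interaction. The slope of ALDH2 on AUC0 of C in MM minus that in DLBCL was −2.54 (standard error 0.83) and did not pass (limma adjusted p = 0.9997). With classes in place of AUC0, a choice made after the values were seen, the interaction was −3.10 (standard error 0.58, limma adjusted p = 0.248). That fit called 0.0256% of all probe-sets, and ALDH2 ranked 23. At an unadjusted p of 0.05 the interactions for C held 3 members' probe-sets, 1 of ALDH2 and 2 of ALDH7A1, in either fit, against 4.56% and 4.54% of all probe-sets. The interactions for H and O held 0 members' probe-sets, against 5.12% and 4.02%, and none of these fits called a member.

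For H the resistant DLBCL lines had ALDH2 values from 8.38 in OCI-Ly7 to 10.68 in U2932. Of the sensitive ones, 4 had values from 6.13 to 6.45 and FARAGE had 10.13. FARAGE thus overlapped the resistant lines, and without it the difference over both diseases was 1.72 in place of 1.37. For O the sensitive DLBCL lines included both MC-116 at 11.53 and FARAGE at 10.13, beside SU-DHL-5 at 6.39 and OCI-Ly19 at 6.45. The resistant ones ranged from 6.26 in SU-DHL-8 to 9.63 in DB, and the groups overlapped on both sides. MC-116 was not tested with C.

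**Figure D4:**
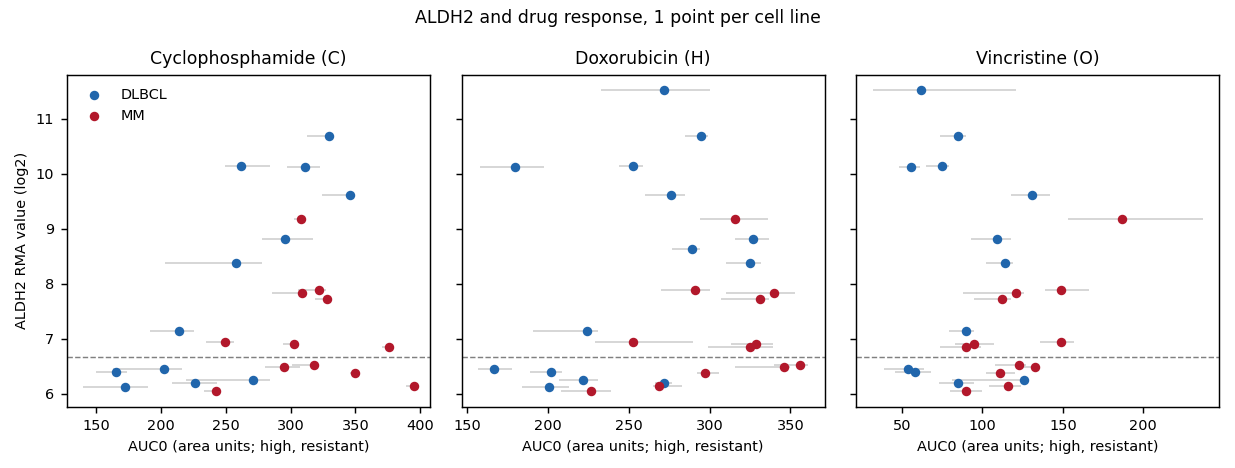
ALDH2 (log2 RMA value) against AUC0 of C, H and O in each tested line. Points are cell lines, DLBCL in blue and MM in red, grey bars are the 95% confidence intervals of AUC0 given with the samples, and the dashed line is the background level of 6.67. The DLBCL line FARAGE, at 10.13, has AUC0 values of 311 under C, 180 under H and 56 under O.

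The third comparison asked whether a member follows AUC0 of C more than that of another drug. AUC0 of each drug was centred within its disease and divided by its standard deviation, and expression was fitted on the difference between C and the other drug. For ALDH2 the slope was 0.24 per standard deviation for C against H (standard error 0.28, 95% confidence interval −0.33 to 0.81) and 0.20 for C against O (standard error 0.23, 95% confidence interval −0.27 to 0.68). In DLBCL lines alone the slopes were 0.72 and 1.28, and in MM lines alone −0.23 and −0.29. Slopes in 1 disease are per standard deviation of AUC0 in that disease, and those over both diseases per pooled one. Their sizes are therefore not on the same scale. Over both diseases C against O was 0.077 without FARAGE and 0.38 without LP-1. Neither passed (limma adjusted p = 0.99996 and 0.984), nor did they in 1 disease alone, and over both diseases both intervals include slopes in either direction. The fits called 0% of all probe-sets. At an unadjusted p of 0.05 they held 0 members' probe-sets, against 3.71% for H and 5.32% for O. The drugs were set against each other on the same lines, 24 for C against H and 23 for C against O.

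ALDH7A1 had the largest estimate of the members for O. The resistant minus the sensitive lines gave 1.49 (standard error 0.51, 95% confidence interval 0.40 to 2.59, limma adjusted p = 0.999). All 8 sensitive lines lay between 3.93 and 4.55. The resistant MM lines had 8.33 in KMM-1, 7.22 in MOLP-8, 6.96 in LP-1 and 4.08 in NCI-H929, and the resistant DLBCL lines ranged from 4.04 to 5.28. The estimate rested mostly on the MM lines, at 2.47 alone against 0.52 in the DLBCL lines. U2932 and OCI-Ly3, the DLBCL lines with ALDH7A1 above background, were intermediate for O. The second probe-set gave a class difference of 1.34 and the third 0.15. Per 100 units of AUC0 of O the slope of the leading probe-set was 1.82 (95% confidence interval −0.48 to 4.11, limma adjusted p = 0.897). No member separated the classes of O in either disease, against 2.37% of all probe-sets in DLBCL lines and 1.87% in MM lines.

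ALDH18A1 had a lower mean in lines resistant to H without passing (difference −0.41, standard error 0.16, 95% confidence interval −0.74 to −0.070, limma adjusted p = 0.707). The resistant DLBCL lines had 9.39 in U2932, 9.85 in SU-DHL-4, 9.90 in RIVA, 9.96 in OCI-Ly7 and 10.10 in DB. The sensitive ones had 10.14 in SU-DHL-8, 10.57 in FARAGE, 10.67 in OCI-Ly19, 10.68 in NU-DHL-1 and 10.72 in SU-DHL-5. These groups did not overlap, by a margin of a few hundredths between DB and SU-DHL-8, and neither did those of the second probe-set. The second probe-set of ALDH1B1 was lower in the resistant DLBCL lines without overlap as well, and higher in the resistant MM lines. Its resistant DLBCL lines, from 6.16 to 6.56, lay under the background level, and the sensitive ones ran from 6.63 to 6.98. Its slope on AUC0 of H in MM minus that in DLBCL was 0.52 (standard error 0.32, limma adjusted p = 0.967). The leading probe-set of ALDH1B1 overlapped in both diseases. By it the resistant DLBCL line RIVA had 6.78, above the sensitive NU-DHL-1 at 6.63. The resistant MM line KMM-1 had 7.74, below the sensitive MM1S at 8.19. Classes of H without overlap were thus found for 3 members' probe-sets in DLBCL lines, against 1.35% of all probe-sets, and 1 in MM lines, against 4.46%. The resistant MM lines included both sisters, KMS-12-BM and KMS-12-PE. ALDH9A1 had a lower mean in lines resistant to H as well (difference −0.34, standard error 0.12, limma adjusted p = 0.660).

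The genes whose levels followed the most variable members were found over the 26 lines among 19774 other genes, and the correlations are descriptions of lines that also share disease and origin. For ALDH7A1 they were POLI, a translesion DNA polymerase, with a Pearson correlation of 0.738, NRSN2 with 0.735 and MBD2, a reader of methylated DNA, with 0.682. For ALDH2 they were REL, a subunit of NF-κB, with 0.753, MMAA, a mitochondrial protein of cobalamin metabolism, with 0.749 and NTNG1 with 0.734. For ALDH3A2 they were MAGT1, a protein of glycosylation and magnesium transport, with 0.780, ACP2, a lysosomal phosphatase, with 0.739 and CAMSAP2, a microtubule minus-end protein, with 0.736. With values centred within each disease the correlations were 0.629, 0.547 and 0.599 for ALDH3A2, and between 0.690 and 0.739 for the genes of ALDH7A1 and ALDH2. All these genes were picked as the 3 highest of 19774 correlations, and such a choice raises the values by itself. No test was run on them.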

How the data were processed

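Total RNA of 26 untreated cell lines was hybridised to 1 Affymetrix HG-U133 Plus 2.0 array each. The authors made the deposited log2 values with RMA (affy, R 3.0.1 per the submitters' processing notes). RMA corrects background, brings arrays to 1 distribution and so hides differences in total RNA. By the study's methods RMA came before the lines were split by disease, and no batches are given in the sources used here. Disease labels, AUC0 and classes came from the labels, and the class of H stands there under a second tag named for C. All classes equal tertiles of AUC0 within the disease. The members and gene lists were chosen with earlier results of these data known.

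Probe-sets were named from the platform annotation, and 62 controls were left out. A gene's leading probe-set has the largest SD over the 14 DLBCL lines. Comparisons were run over 54613 probe-sets with R 4.3.3 and limma 3.58.1, with Benjamini-Hochberg adjustment over all of them and a threshold of 0.05, after the code was tested on simulated data. Values after ± are SDs. Named genes are all members, up to 4 genes of each further list that passed, and the 3 genes most correlated with each of the 3 members of widest range. Some genes of the further lists are not reported here. Promoter stretches came from RefSeq (GRCh38.p14). Figures were drawn with matplotlib 3.10.9 in Python 3.11.15. Alternatives were other probe-sets, scalings, priors, background levels and serum as a covariate, and lines or 1 disease left out.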

Additional observations from a re-analysis of the deposited data

Results flagged for a closer look

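The values of each member's leading probe-set were searched within the resistant and the sensitive lines of each drug, and for ALDH2 also within each disease, for a line far from the others of its class (Dixon's criterion at 95%). Of 72 groups searched, 10 held such a line, and chance alone flags about 1 in 20 groups drawn from 1 normal distribution. Most groups here pooled both diseases, and some members are unevenly spread, so the count cannot be set against that rate. The groups share lines between drugs, so the same line can appear more than once.

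ALDH2 in FARAGE was 10.13 among the lines sensitive to H, where the next value was 7.89 over both diseases and 6.45 among DLBCL lines. ALDH7A1 in U2932 was 9.05 among the lines resistant to C, where the next value was 5.23. ALDH7A1 in MOLP-8 was 7.22 among the lines sensitive to H, where the next value was 4.38. ALDH4A1 in DB was 5.38 among the lines resistant to C, with the next value at 6.40, and among those resistant to H, with the next value at 6.13. ALDH4A1 in OPM-2 was 7.20 among the lines sensitive to C, where the next value was 6.61. ALDH1A3 in RIVA was 3.54 among the lines resistant to C, with the next value at 3.98, and among those resistant to H, with the next value at 4.01. ALDH1A1 in OCI-Ly7 was 4.18 among the lines resistant to H, where the next value was 3.69. The values of ALDH1A3 and ALDH1A1 lie under the background level of 6.67, as does that of ALDH4A1 in DB.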

How the results depend on the processing

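Of 1162 values recomputed under an alternative, 1140 kept their direction and their side of the threshold or, for counts, stayed within a factor of 1.5. Most of the 1162 were refits with 1 line left out. The main fits for the drugs called 0% of all probe-sets, so their values could hardly cross the threshold. The share kept is therefore no measure of how firm those estimates are. With 1 probe-set per gene, 4 of 10 members' probe-sets were called between the diseases in place of 7 of 18, since fewer were tested, and with each line left out in turn the count ran from 7 to 9. For every drug comparison and interaction the count of called members' probe-sets was 0 under all alternatives run. Some estimates of ALDH2 turned. In DLBCL lines alone the class difference for O was −0.36 and the slope for O was −0.66. In MM lines alone the slope for C was −0.10, and the slopes for C against H and against O were −0.23 and −0.29. With values centred per disease and MM scaled to DLBCL, C against O was −0.030. With each line left out the slope of ALDH2 for O ran from −0.023 without LP-1 to 1.53, and the disease difference of ALDH7A1 from −0.25 without KMM-1 to 0.38 without U2932. Without FARAGE, C against H was 0.0039 for ALDH2, and without AMO-1 it was 0.46. The cause was not tested in any of these. Of 260 pairs of a member and a line, 110 were above the 99th percentile of the background probe-sets, 128 above a fixed value of 7 and 122 by the leading probe-set alone. Signal near the background limits what can be said of ALDH4A1 and ALDH1B1, and of ALDH2 in its lower lines. The labels give no pairing of lines between the diseases or between the classes, so those comparisons were not paired.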
